A study of Mus musculus with 8 samples.

Results

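Cytosolic ribosomal protein genes were taken from the mm10 annotation by symbol: protein-coding genes named Rpl or Rps followed by a digit, with Rpsa and Rplp0 to Rplp2 and without the Rps6k kinases. The rule gave 91 genes of 21631 protein-coding genes on chromosomes 1 to 19 and X. Of these, 46 encode proteins of the large subunit and 31 proteins of the small subunit. The other 14 are paralogues and genes with related symbols, such as Rpl22l1, Rpl36al, Rpl3l, Rps27l and Rps19bp1, the last of which encodes a binding partner of Rps19 and no ribosomal protein. The genes were examined in Hepa-1c1c7, a mouse hepatoma cell line, in which open chromatin was mapped by ATAC-seq, an assay in which a transposase inserts sequencing adapters into DNA left free of nucleosomes.

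All cells came from this 1 line. They were kept in potassium chromate, which supplies hexavalent chromium, at 0.1, 0.5 or 1 µM for 72 h, with 2 libraries for each dose and 2 libraries of untreated cells (0 µM). The labels do not say if a pair of libraries stands for separate cultures. The deposited data are 3 lists of regions, 1 for each treated dose, each shared by the pair of libraries of that dose and named together with the untreated cells. A list has no replicate error, so no difference between doses could be tested, and the depth behind a region is unknown. The use made of the untreated libraries is not stated, so a listed region is not shown to be more accessible in treated cells, and a gene without a region is not shown to be closed. All 3 lists are named with the same untreated label, so they may share their control libraries. The 1 µM libraries carry another prefix (N503) in their labels than the rest (N502), which cannot be told apart from the dose.

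The ribosome is built from a small subunit, which reads the mRNA, and a large subunit, which forms peptide bonds. Its proteins are made in equal amounts from genes that are scattered over the chromosomes, short and very active in growing cells, and many of these genes carry small nucleolar RNAs in their introns. Their transcripts commonly begin with a C and a run of pyrimidines, the terminal oligopyrimidine (TOP) tract, through which growth signals act on their translation. Many processed pseudogenes copied from their mRNAs lie elsewhere in the genome.

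The lists held 14401 regions at 0.1 µM, 11130 at 0.5 µM and 15894 at 1 µM. Among 10 hepatocyte and hepatoma markers, Apoa2 and Foxa2 had a region within 1 kb of a gene end at each dose and the other 8, Alb and Afp among them, at none. None of the 5 immune or 4 endothelial markers had one at any dose, and of 5 fibroblast and stellate cell markers Dcn had one at 0.5 and 1 µM.

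Promoter sequences of the genes on which the results turn are shown first, to let the reader see what the listed regions cover. Of the 91 genes, 70 had a promoter window in the RefSeq table of GRCm38.p6, the same assembly as mm10. The 6 genes below had a region at a gene end at all 3 doses and the best mean ranks by score among those in the table. Each sequence runs 5′ to 3′ on the strand of the gene, from 120 bases before the RefSeq start through the first 30 transcribed bases. Capitals mark matches to the short motifs described further on.
Rpl34: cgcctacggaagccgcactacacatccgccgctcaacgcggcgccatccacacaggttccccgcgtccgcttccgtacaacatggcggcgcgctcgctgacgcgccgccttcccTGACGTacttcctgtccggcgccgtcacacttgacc
Rpl41: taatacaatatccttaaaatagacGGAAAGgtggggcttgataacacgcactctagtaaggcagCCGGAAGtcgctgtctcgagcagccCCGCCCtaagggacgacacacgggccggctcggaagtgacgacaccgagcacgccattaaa
Rpl22l1: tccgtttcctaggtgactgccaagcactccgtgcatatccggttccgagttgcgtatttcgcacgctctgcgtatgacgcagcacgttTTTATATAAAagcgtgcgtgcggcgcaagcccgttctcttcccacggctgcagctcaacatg
Rpl36a: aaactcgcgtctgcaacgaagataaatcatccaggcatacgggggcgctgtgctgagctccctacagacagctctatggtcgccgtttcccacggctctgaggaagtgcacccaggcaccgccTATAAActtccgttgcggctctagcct
Rpl31: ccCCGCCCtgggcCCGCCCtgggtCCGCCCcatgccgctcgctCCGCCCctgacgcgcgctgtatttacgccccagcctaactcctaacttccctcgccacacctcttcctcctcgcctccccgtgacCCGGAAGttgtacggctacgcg
Rpl37: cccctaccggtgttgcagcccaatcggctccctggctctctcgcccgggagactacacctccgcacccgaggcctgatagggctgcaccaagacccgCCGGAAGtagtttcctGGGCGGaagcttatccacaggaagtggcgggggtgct

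They lie at chr3:130730369-130730518 (minus strand) for Rpl34, chr10:128549139-128549288 (minus) for Rpl41, chr3:28805388-28805537 (plus) for Rpl22l1, chrX:134585534-134585683 (plus) for Rpl36a, chr1:39367731-39367880 (plus) for Rpl31 and chr15:5116493-5116642 (plus) for Rpl37. All 150 bases of each were inside a listed region at 0.1, at 0.5 and at 1 µM. For contrast, 1 gene of each subunit is shown that had no region in its body or within 10 kb of it in any list, Rpl11 (chr4:136053364-136053513, minus) and Rps15 (chr10:80292311-80292460, plus).
Rpl11: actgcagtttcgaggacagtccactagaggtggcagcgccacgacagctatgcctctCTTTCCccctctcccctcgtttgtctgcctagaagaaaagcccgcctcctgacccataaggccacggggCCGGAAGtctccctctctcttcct
Rps15: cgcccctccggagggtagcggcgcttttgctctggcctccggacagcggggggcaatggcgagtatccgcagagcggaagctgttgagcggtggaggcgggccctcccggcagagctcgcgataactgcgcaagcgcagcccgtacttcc

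Regions lay within 1 kb of an end of 26 of the 91 genes at 0.1 µM, 24 at 0.5 µM and 31 at 1 µM. These counts correspond to 28.6%, 26.4% and 34.1% of the genes. Over all protein-coding genes, which include genes silent in this line, the shares were 19.5%, 18.7% and 23.0%. At all 3 doses, 20 ribosomal protein genes (22.0%) had such a region, against 14.2% of all genes, and at any dose 37 (40.7%), against 26.8%. The remaining 54 genes had none.

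Large subunit genes had regions in 12, 13 and 16 of 46 cases in order of dose, and small subunit genes in 11, 8 and 13 of 31. Of the paralogues and related genes, 3, 3 and 2 of 14 had one. These are 21.4%, 21.4% and 14.3%, against 19.5%, 18.7% and 23.0% of all genes. With the 77 genes of both subunits alone, the shares were 29.9%, 27.3% and 37.7%. Each subunit thus contributed to the count at every dose. The genes that are not standard ribosomal proteins had lower shares than the rest at each dose, but these rest on 2 or 3 genes and the difference was not tested.

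**Figure D1:**
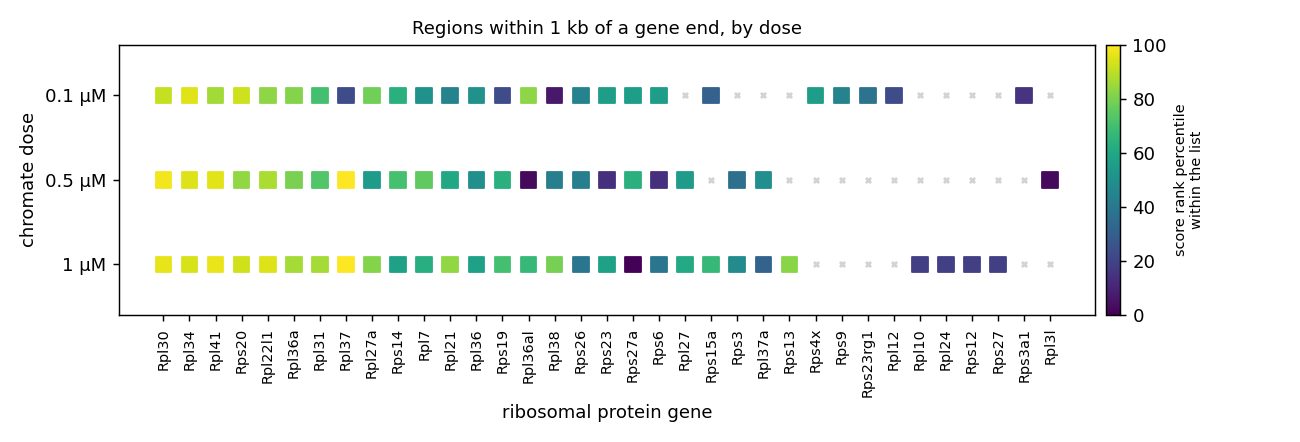
Each column is 1 of 35 ribosomal protein genes with a region within 1 kb of a gene end (those with one at every dose, and the others of known strand), and each row a chromate dose. Squares mark a region and are coloured by its score rank percentile within the list (the highest where there are several), and grey crosses mark genes without one; the 20 genes at the left have a region at every dose.

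The gene with the best mean rank of these 20 was Rpl30, whose protein binds kinked RNA in the large subunit and regulates splicing of its own transcript in yeast. Its region lay at chr15:34442942-34443905 at 0.1 µM and had scores, the authors' own number per region on a scale they do not state, of 39, 62 and 73 in order of dose. Its widths were 964, 1059 and 1885 bp. Rpl34, a large subunit gene, had scores of 52, 39 and 57 (chr3:130730017-130730663 at 0.1 µM). These regions ranked between the percentiles 91.3 and 98.2 of their lists for Rpl30 and between 94.1 and 95.0 for Rpl34, so both genes stood near the top of every list.

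Rpl41, which encodes the smallest ribosomal protein, had scores of 29, 41 and 76 (chr10:128548967-128549493 at 0.1 µM). Rps20, a small subunit gene, had 42, 21 and 49 for its highest region (chr4:3835335-3835874 at 0.1 µM) and a weaker additional region at 1 µM, with a score of 8. Rpl22l1, a paralogue of Rpl22, had 26, 24 and 60 (chr3:28805188-28805770 at 0.1 µM). The gene Rpl22 itself had none within 1 kb: its regions at 0.1 and 1 µM lay inside the gene, 1098 and 1074 bp from an end. The pair therefore differed in the place of their regions, with the paralogue covered at its start and Rpl22 further in.

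Rpl36a, on the X chromosome, had scores of 24, 19 and 35 (chrX:134585332-134585879 at 0.1 µM), and its paralogue Rpl36al had 26, 4 and 19 (chr12:69183785-69184270 at 0.1 µM). Rpl31, whose protein sits near the exit of the peptide tunnel, had 17, 16 and 35 (chr1:39367592-39367989 at 0.1 µM). Both Rpl36a and Rpl36al, a paralogous pair, thus had a region at each dose. That of Rpl36al at 0.5 µM had the lowest score found in the lists (rank percentile 2.59). The regions of Rpl36al also lie within 1 kb of an end of Mgat2.

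Rpl37 had scores of 7, 154 and 352 for overlapping regions of 1950, 1207 and 1634 bp (chr15:5115399-5117348 at 0.1 µM). The score of 352 was the highest at any of these genes, yet the widest of the 3 regions had the lowest score, and scores are therefore read here only within a list. The same regions lie within 1 kb of an end of Card6, a neighbouring gene. Rpl37 also had a separate region beyond its far end at 0.5 µM (score 5) and 1 µM (score 16).

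Mean rank percentiles between 52.1 and 71.6 belonged to 6 further genes. They included Rpl27a, with scores of 22, 11 and 28 (chr7:109518842-109519386 at 0.1 µM), Rpl7, with 11, 17 and 17 (chr1:16104195-16105044), and Rpl21, with 10, 12 and 30 (chr5:146832875-146833173), all of the large subunit. Rps14, whose human counterpart is lost in a form of myelodysplastic syndrome, had 15 at each dose (chr18:60774288-60774579 at 0.1 µM). Rps19, the gene most often mutated in Diamond-Blackfan anaemia, had 7, 13 and 20 (chr7:24884117-24884622 at 0.1 µM). Rpl36 had 11, 10 and 15 (chr17:56609679-56610102 at 0.1 µM). It was the exception among the 20, because its region at 0.5 µM (chr17:56613234-56613508) lay at the opposite end of the gene from those at 0.1 and 1 µM. In each of the other 19 genes, a single site made of overlapping regions was listed at all doses.

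The lowest mean ranks belonged to small subunit genes and to Rpl38. Rps6, whose product is the substrate of the kinases that the gene rule left out, had scores of 12, 6 and 10 (chr4:86857182-86857579 at 0.1 µM). Rps27a, which encodes a ribosomal protein fused to ubiquitin, had 12, 13 and 4 (chr11:29547826-29548373). Both were in the lower part of at least 1 list. Rps23, which encodes a protein of the decoding centre, had 12, 6 and 15 (chr13:90922644-90923350), and Rps26 had 10, 9 and 10 (chr10:128626394-128626984). Rpl38, known for its role in the translation of a subset of Hox mRNAs, had 5, 9 and 26 (chr11:114668365-114668597). Over the 20 genes the mean rank percentile ran from 36.0 (Rps6) to 95.3 (Rpl30), so regions present at every dose were spread over much of the rank range.

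A region at 1 or 2 of the doses was found for 17 genes (18.7%), against 12.6% of all genes. Rpl27, Rpl37a and Rps3, which encodes a protein of the mRNA entry channel that also acts in DNA repair, had one at 0.5 and 1 µM, and Rps15a at 0.1 and 1 µM. At 0.1 µM alone there were Rpl12, Rps3a1, Rps4x, Rps9 and Rps23rg1, and at 0.5 µM alone the paralogue Rpl3l, which is known from muscle. Among those at 1 µM alone were Rpl10, which encodes a protein near the peptidyl transferase centre, Rpl24, Rps12, Rps13 and Rps27. Shares of ribosomal protein genes and of all genes were 3.30% and 2.27% at 0.5 and 1 µM, and 1.10% and 3.16% at 0.1 and 1 µM. For 0.1 µM alone they were 5.49% and 1.54%, and for 0.5 µM alone 1.10% and 1.69%. The pattern of 0.1 and 0.5 µM had 0 ribosomal protein genes and 0.606% of all genes. The 7 genes at 1 µM alone make up 7.69% of the ribosomal protein genes, and 3.37% of all genes had that pattern, in the longest of the lists. Of those named, Rps13 had a region in the upper part of the list (score 29, rank percentile 82.4), and Rpl10, Rpl24, Rps12 and Rps27 had regions with scores of 6 or 7.

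Regions away from the gene ends were looked for in the gene body and 10 kb either side. This wider window held a region at 32, 30 and 36 of the 91 genes, or 35.2%, 33.0% and 39.6%, against 31.7%, 30.2% and 36.8% of all genes. The shares were thus close to those of all genes, while the window was shorter, with a median of 23175 bp for ribosomal protein genes and 37329 bp for all genes. Genes with a region in this window and not at an end were Rpl17 at each dose, Rpl22 and Rps27rt at 0.1 and 1 µM, Rpl29 and Rpl35 at 0.1 µM, Rpl10a, Rplp2, Rps10 and Rps21 at 0.5 µM, and Rps2 at 1 µM.

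No region in this window was listed at any dose for 44 genes (48.4%), against 57.3% of all genes. They included 23 of the large subunit, among them Rpl5 and Rpl11, whose proteins bind the smallest ribosomal RNA of that subunit and can hold the p53 regulator Mdm2. The others of that subunit were Rpl3, Rpl4, Rpl6, Rpl7a, Rpl8, Rpl9, Rpl13, Rpl13a, Rpl14, Rpl15, Rpl18, Rpl19, Rpl23, Rpl23a, Rpl26, Rpl28, Rpl32, Rpl35a, Rpl39, Rplp0 and Rplp1. Of the stalk genes Rplp0, Rplp1 and Rplp2, which encode the proteins that recruit elongation factors, none had a region at a gene end. The same held for 59.3% of the ribosomal protein genes and 73.2% of all genes. The small subunit gave 12, among them Rps7, Rps15, Rps16, Rps18, Rps24, Rps25, Rps28, Rps29 and Rpsa, the last also known as a laminin receptor. The other 9 were Rpl7l1, Rpl10l, Rpl31-ps12, Rpl32l, Rpl34-ps1, Rpl37rt, Rpl39l, Rps19bp1 and Rps27l.

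Where the strand was known from the promoter table, the regions lay at the start of the gene. Of the regions at ends of such ribosomal protein genes, 19 of 19 at 0.1 µM, 16 of 18 at 0.5 µM and 23 of 25 at 1 µM were on the side of the start, and 15, 13 and 21 covered the first transcribed base. The exceptions lay at the far end, of Rpl3l and Rpl37 at 0.5 µM and of Rpl37 and Rps15a at 1 µM. Counted by gene, 19 of 19, 16 of 17 and 22 of 22 had a region at the start, and among all genes with a known strand and a region at an end the shares were 96.4%, 95.6% and 95.7%. The midpoints of the regions on the start side had a median of -49, -20 and -41 bp from the start in order of dose, slightly upstream.

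The regions of Rpl38 lay farthest downstream of the start, beginning 547, 660 and 564 bp after it in order of dose. At 0.1 µM, the regions of Rps4x, 17 bp downstream, and of Rps15a and Rps23rg1, 57 and 7 bp upstream, also stopped short of the start. Those of Rps19 and Rpl27a at 0.5 µM ended 385 and 95 bp upstream of the start, while at 0.1 and 1 µM they covered it. The RefSeq promoter window, from 250 bases before to 50 after the start, was touched in 19, 15 and 23 of 70 ribosomal protein genes, or 27.1%, 21.4% and 32.9%, against 18.1%, 17.0% and 21.3% of 17274 genes.

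**Figure D2:**
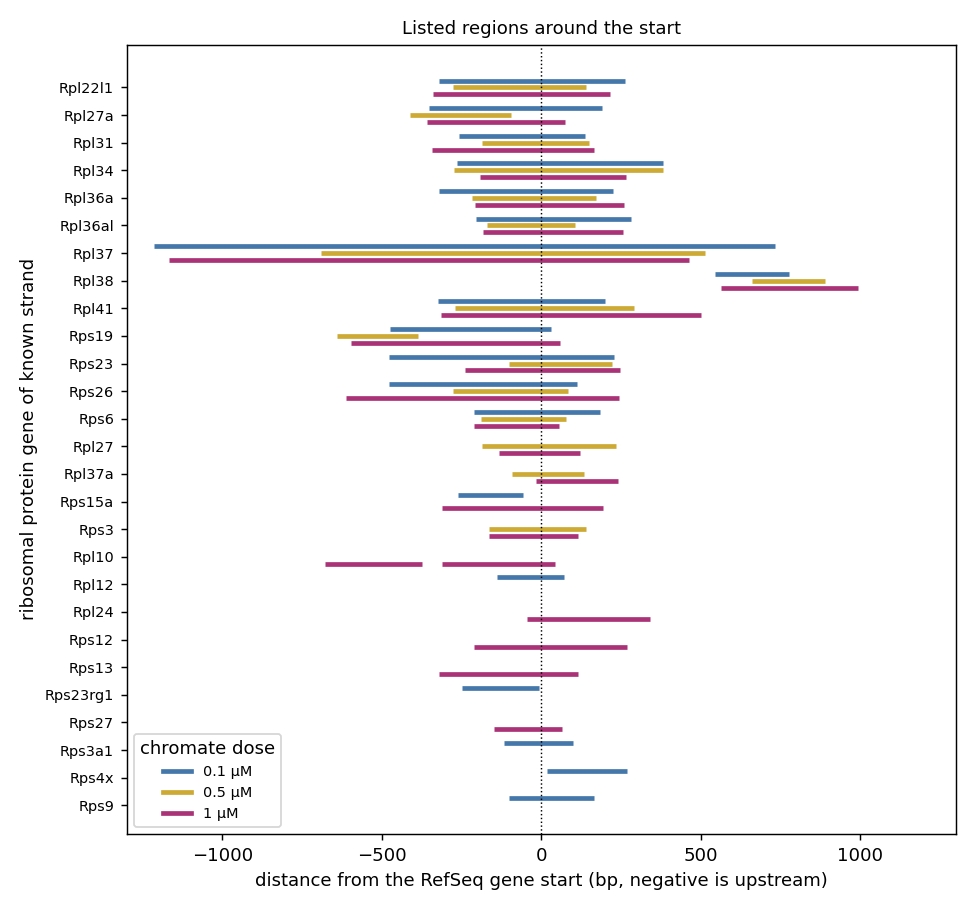
Listed regions on the start side of ribosomal protein genes of known strand, with the distance from the RefSeq start in bp on the horizontal axis and 1 line for each region, coloured by dose; genes are ordered by the number of doses at which they had a region. Most lines cross the dotted line at the start, and those of Rpl38 lie 547 bp or more downstream.

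By median rank, these regions were close to those at any gene end. The median rank percentile of regions at ends of ribosomal protein genes was 55.2, 57.1 and 60.3 in order of dose, and of regions at any gene end 55.2, 54.8 and 57.4. Above the percentile 90 there were 3 of 26 regions at 0.1 µM, 4 of 26 at 0.5 µM and 6 of 35 at 1 µM. Below the percentile 25 there were 5, 5 and 8. The same counts were not made for regions at any gene end, so these have no comparison. Their median width was 496, 330 and 470 bp, against 422, 377 and 432 bp at any gene end.

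**Figure D3:**
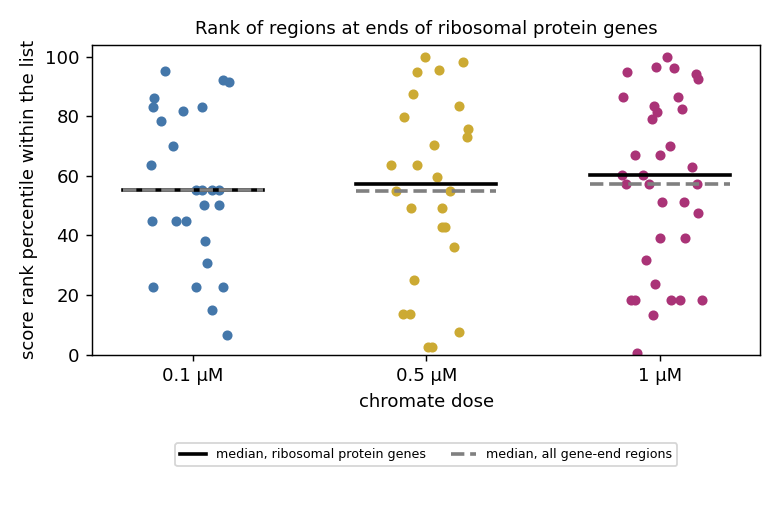
Score rank percentile within the list (vertical axis) of each region within 1 kb of an end of a ribosomal protein gene, by dose; points are spread sideways at random. Black lines are their medians (55.2, 57.1 and 60.3) and grey dashed lines the medians of regions at any gene end (55.2, 54.8 and 57.4).

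Merged over the lists, regions at the ends of ribosomal protein genes formed 42 sites. Of these, 25 (59.5%) were listed at more than 1 dose and 19 (45.2%) at all 3. The 5805 sites formed in the same way at all gene ends gave 67.8% and 46.7%. Since the lists may share their controls, this is a description and no measure of a common response.

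Several of the regions also lie near an end of a neighbouring gene. Another protein-coding gene ended within 1 kb of an end of 32 of the 91 genes, and in 25.1% of all genes. Distance was next measured from the region itself, which was not done over all genes. At each dose, 7 of the 26, 24 and 31 genes with a region had one within 1 kb of an end of another gene. At 0.1 µM these were Rpl7 with Rdh10, whose end is over 1 kb from that of Rpl7 itself, Rpl12 with Lrsam1, Rpl36 with Micos13, Rpl36al with Mgat2, Rpl37 with Card6, Rpl41 with Zc3h10 and Rps27a with Clhc1. Among the 59 ribosomal protein genes without such a neighbour, 18, 16 and 21 had a region (30.5%, 27.1% and 35.6%), against 17.0%, 15.7% and 19.4% of all genes without one. Among the 32 with a neighbour, the shares were 25.0%, 25.0% and 31.2%, against 27.1%, 27.9% and 33.6%. At all 3 doses, 13 of the 59 (22.0%) and 7 of the 32 (21.9%) had a region, against 12.3% and 19.9% of all such genes. This split was made after the data were seen, and the difference between the parts was not tested.

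On chromosome 15, 39.0% of all 776 genes had a region at a gene end at any dose, against 26.8% over all chromosomes. It carries Rpl3, Rpl8, Rpl30, Rpl37 and Rps19bp1, and of these 5, Rpl30 and Rpl37 had a region at each dose. Without chromosome 15, 27.9%, 25.6% and 33.7% of ribosomal protein genes and 19.1%, 18.3% and 22.6% of all genes had a region. Chromosome 9 was picked out after its values were seen: none of its 8 members (Rpl4, Rpl14, Rpl29, Rplp1, Rps25, Rps27l, Rps27rt and Rpsa) had a region at a gene end, where 17.2% of the 1201 genes of that chromosome had one at any dose. None of the 2 members each of chromosomes 6 and 14 had one either. By contrast, all 3 members of chromosome 1 and all 4 of chromosome 3 had one. Differences between chromosomes were not tested.

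Copies of these genes elsewhere in the genome were also examined. The table holds 309 ribosomal protein pseudogenes on the same chromosomes, and 0 were touched by a region at each dose. Of all 10508 pseudogenes, 0.876%, 0.581% and 0.971% were touched in order of dose. Regions were thus rare at pseudogenes of any kind, and the difference was not tested. The spans of the ribosomal protein genes themselves were touched in 24, 18 and 34 of 91 cases, against 24.6%, 22.5% and 28.3% of all genes.

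Small nucleolar RNA genes lay inside 30 of the 91 genes, 59 in all. Hosts had a region at a gene end at any dose in 12 of 30 cases (40.0%) and the remaining genes in 25 of 61 (41.0%). At all doses the counts were 5 of 30 and 15 of 61, or 16.7% and 24.6%. Over all protein-coding genes the shares were 26.8% at any dose and 14.2% at all doses. The difference between hosts and the remaining genes was not tested.

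What the promoters share was described from the letters of the 70 windows, each 250 bases before to 50 after the start, beside the same windows of 17274 genes. Both strands were searched, and CACGTG reads the same on both. The letters CCGGAAG, the core bound by ETS factors such as GABPA, were in 35.7% of ribosomal protein promoters and in 12.1% of all. The letters AAGATGG, part of the site of YY1, were in 14.3% and 6.40%, and TGACGT, a part of the cyclic AMP response element, in 17.1% and 8.81%. TATAAA was in 12.9% and 13.4%, the E-box CACGTG in 7.14% and 8.01%, and the AP-1 site TGACTCA in 1 of 70 (1.43%) and 4.60%. The ETS letters were thus the motif with the largest ratio between both sets among these.

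A start on C with at least 4 further C or T, as in a TOP tract, was found in 14 of 70 promoters (20.0%) and in 2.19% of all. With the C allowed from 5 bases before to the first 10 bases after the RefSeq start, the shares were 44.3% and 20.2%. CTTTCC, anywhere in the window and on either strand, was in 47.1% and 26.1%. Such a match need not lie at the start and does not show a TOP tract. Median GC content was 57.0% and 56.3%.

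Among the ribosomal protein genes, the 13 promoters with a region at all doses held the GC box GGGCGG, bound by SP1, in 11 cases, the 15 with a region at 1 or 2 doses in 8, and the 42 with none in 21. The share was 46.9% of all promoters and 68.1% of the promoters of all genes with a region at every dose. The ETS letters were in 7 of the 13, 1 of the 15 and 17 of the 42, and in 21.6% of the promoters of all genes with a region at every dose. A TOP start was in 2 of 13, 2 of 15 and 10 of 42, and with the wider search a C and pyrimidine run was in 8 of 13, 5 of 15 and 18 of 42. For all genes with a region at every dose these shares were 2.37% and 20.5%. The counts are small and their differences were not tested. In the sequences shown above, the ETS letters are in Rpl31, Rpl37 and Rpl41 and also in Rpl11, which had no region. A match is a run of letters and does not show that a factor was bound.

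**Figure D4:**
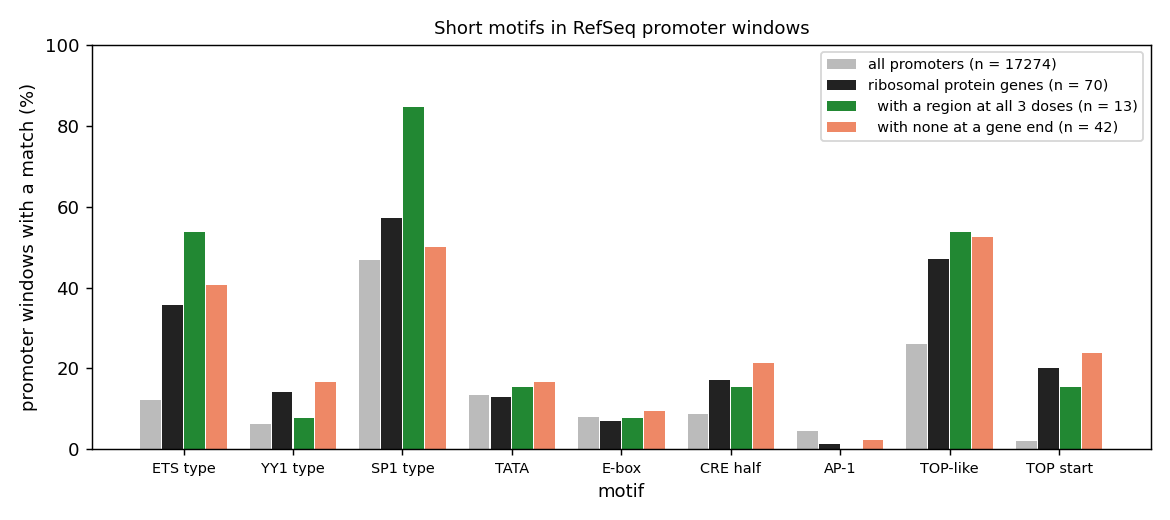
Percent of RefSeq promoter windows that hold each motif on either strand (TOP-like: CTTTCC anywhere in the window; TOP start: a C at the start with 4 further pyrimidines), for all promoters, the 70 ribosomal protein promoters, the 13 of them with a region at every dose and the 42 with none at a gene end. ETS type letters and a TOP start are in 35.7% and 20.0% of ribosomal protein promoters, against 12.1% and 2.19% of all.

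Other genes that serve the ribosome were counted in the same way. Of 78 mitochondrial ribosomal protein genes, whose products form the separate ribosome of that organelle, 43.6%, 39.7% and 46.2% had a region at a gene end in order of dose. Translation initiation and elongation factor genes, taken by the symbols Eif or Eef followed by a digit, had one in 38.6%, 34.3% and 48.6% of 70 cases. Ribosome biogenesis genes had one in 42.2%, 43.4% and 51.8% of 83. For RNA polymerase I, which transcribes ribosomal RNA, and its factors the shares were 30.0%, 25.0% and 35.0% of 20. At each dose, cytosolic ribosomal protein genes had a lower share than all of these lists except RNA polymerase I, where the shares were close. Differences between the lists were not tested, and median gene length differed, with 3175 bp for cytosolic and 7690 bp for mitochondrial ribosomal proteins, 15294 bp for the translation factors and 14146 bp for biogenesis genes. The span searched at gene ends had a median of 4002 bp both for cytosolic ribosomal protein genes and for all protein-coding genes.

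The mitochondrial genes with the best mean rank were Mrpl17 (scores 67, 55 and 112), Mrpl50 (46, 69 and 81) and Mrps9 (53, 30 and 58). In the translation factor list they were Eif3f (78, 25 and 84), Eif4e, which encodes the cap-binding protein (40, 34 and 38), and Eef2k (38, 17 and 61). Eef2k, a kinase gene of elongation control, is in that list by its symbol and encodes no elongation factor. Rrs1 (83, 84 and 154), Ddx18 (61, 40 and 64) and Las1l (48, 25 and 43) led the biogenesis genes, and Polr1d (27, 36 and 42), Polr1b (14, 7 and 20) and Taf1a (9, 14 and 6) the RNA polymerase I list. Of Fau and Rack1, which encode ribosomal proteins under other symbols, Rack1 had a region at a gene end at 0.1 and 1 µM, and Fau had none at any dose.

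**Figure D5:**
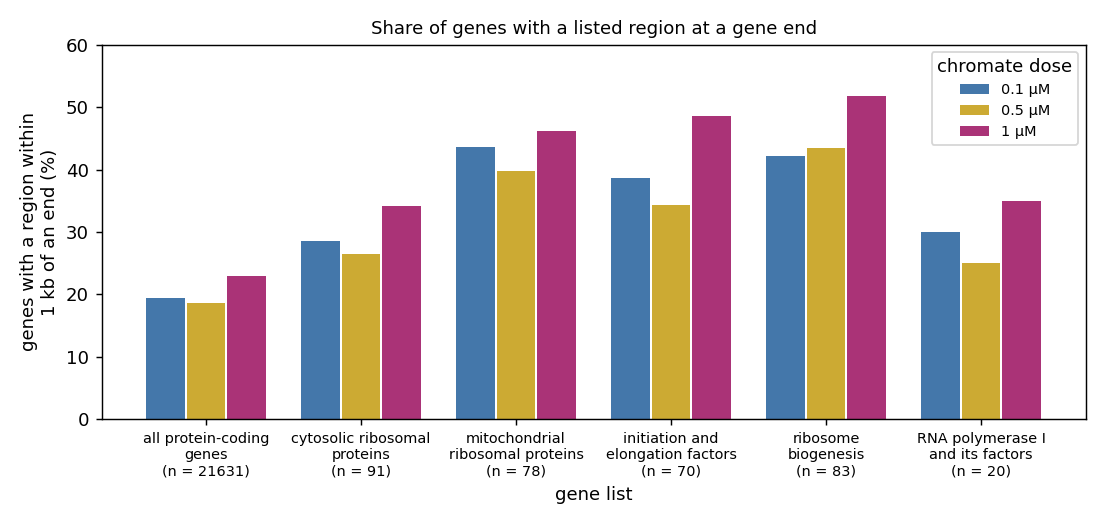
Percent of the genes of each list with a region within 1 kb of a gene end (vertical axis), 1 bar for each chromate dose. Cytosolic ribosomal protein genes, at 28.6%, 26.4% and 34.1%, lie above all protein-coding genes and below the mitochondrial ribosomal protein, translation factor and biogenesis lists.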

How the data were processed

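ATAC-seq regions of chromate-treated Hepa-1c1c7 cells were analysed as the authors deposited them, in 3 lists. Each region carries a position and a score as deposited by the authors, in whole numbers from 4 upwards and with no stated scale. Per the submitters' processing notes, Bowtie2, Picard and MACS2 are listed as tools and mm10 as the build. Not given in the sources used here are versions, thresholds, the Tn5 read shift, duplicate removal and how libraries were pooled. The names of the lists carry a q tag and the words filtered, BL and unique, from which no setting was read here. The untreated libraries have no list of their own here. Positions were made 1-based and compared with the RefSeq gene table of GRCm38.p6 (Python 3.11.15, pandas 2.3.3). A region counted at a gene end when any base lay within 1 kb of either end. Strand and promoter letters came from the RefSeq promoter table, with the most upstream window of each gene. Scores were ranked within a list. Overlap counting was tested on simulated regions planted at long genes far from other genes, and recovered the planted genes. That test did not cover short genes, ends shared with a neighbour or the side of the gene. All values are descriptions, with no test, because a dose has 1 list. The genes and gene lists were chosen with earlier results of these data known; Eif6 is in both the translation factor and biogenesis lists, and 83 of 84 biogenesis symbols matched. Genes with a region at all doses were described, the others named by dose (some genes are not reported here by name), the 3 best-ranked all-dose genes of each further list named, and promoters printed for the 6 best-ranked genes and 1 of each subunit without a region. Alternatives changed the window, the overlap rule, the part of the list used and the gene set.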

Additional observations from a re-analysis of the deposited data

How the results depend on the processing

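No paired analysis was possible because each dose has 1 list for both libraries, and for the same reason no library could be left out. Of 57 alternative counts, 47 stayed within 1.5 times the reported count, and in 53 of 56 with a share over all genes the share of ribosomal protein genes was the higher. The 3 exceptions were the gene body windows at 0.5 µM: with no flank 18 genes (19.8% against 22.5% of all genes), in the stronger 50% of the list 16 (17.6% against 18.8%) and in the wider 50% 15 (16.5% against 19.2%). At gene ends, the stronger 50% of the lists left 16 genes at 0.1 µM (17.6% against 11.8%), 15 at 0.5 µM (16.5% against 11.3%) and 10 at all doses (11.0% against 7.27%). The wider 50% left 17, 12 and 10 (18.7%, 13.2% and 11.0% against 13.3%, 12.2% and 9.03%), so at 0.5 µM the shares were close. Fewer regions were used in these settings. With genes that have no other gene end within 1 kb, a setting added after the data were seen, 13 of 59 had a region at all doses. With a reciprocal overlap of 50%, 23 of 48 sites (47.9%) were listed at more than 1 dose. Depth could not be weighed, since the lists hold no read counts.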
